A study of Mus musculus with 2 samples.

Results

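Immune checkpoint ligands and receptors were examined in skin tumours induced by ultraviolet B (UVB) light in P2ry6-/- and wild-type (WT) mice. The group held 10 genes of the 37321 gene names on the arrays: the ligands Cd274 (PD-L1), Pdcd1lg2 (PD-L2), Cd276 (B7-H3), Vtcn1 (B7-H4), Cd80 and Cd86, and the receptors Pdcd1 (PD-1), Ctla4, Havcr2 (TIM-3) and Lag3. They were chosen by name, as every non-control probe carrying 1 of these symbols, which gave 17 of 56605 probes. Of the 10 genes, 6 were above background on both arrays, Cd276 on the P2ry6-/- array only, Ctla4 on the WT array only, and Pdcd1lg2 and Vtcn1 on neither.

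The tested mice were male P2ry6-/- animals, which lack the receptor for the extracellular nucleotide UDP, and the others were male P2ry6+/+ (WT) animals. Both genotypes were 2 months old at the start and received 180 mJ/cm2 of UVB on shaved back skin for 10 weeks. The dose then increased by 10 mJ/cm2 each week to 300 mJ/cm2 at week 22 and was held there until week 40. Total RNA of the tumours was labelled with Cy3 and hybridised to single-colour Agilent arrays, 1 array per genotype, both on 1 slide read in 1 scan. How many tumours or mice gave each RNA, how the P2ry6 allele was made, and the tumours' histology are not given in the sources used here. With 1 array per genotype no difference has a replicate check. No test was run, and every value below describes these 2 RNA samples.

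T cells are activated by the antigen receptor together with a second signal from CD28, which binds CD80 and CD86 on antigen-presenting cells. Checkpoint receptors restrain that response: CTLA-4 competes with CD28 for CD80 and CD86, PD-1 is engaged by PD-L1 and PD-L2, and TIM-3 and LAG-3 are found on T cells after long stimulation. PD-L1 is induced by interferon gamma and can be displayed by tumour cells and by myeloid cells, and blocking PD-1 is used to treat human skin squamous cell carcinoma.

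The array reads each gene through 60-base probes. The first 30 bases of those on which the results below turn are given 5′ to 3′ as the array files list them, with mm9 positions from the same files. Cd276, with 1 probe, showed the widest gap between the arrays. Cd80 and Lag3 had probes that disagreed, and Havcr2 had the largest difference among the genes measured on both arrays. Capitals in the Cd276 probe mark the longest run that it shares with other non-control probes of the array, 17 bases.
Cd276 (chr9:58372143-58372202, minus strand): GGCTACACAGAGAAACCatcttaaagacta
Cd80 probe 1 (chr16:38474174-38474233, plus strand): agaccggggcacatacagctgtgtcgttca
Cd80 probe 2 (chr16:38479343-38479402, plus strand): ttcaatacgactcgcaaccacaccattaag
Cd80 probe 3 (chr16:38486772-38486831, plus strand): aaaggagaggtgcctagtcttactgcaact
Cd80 probe 4 (chr16:38495628-38495688, plus strand): gattcctggaagtggcttttgctctttgga
Havcr2 (chr11:46294650-46294709, plus strand): ctaacaaaatccattagagataacagctct
Lag3 probe 1 (chr6:124854570-124854866, minus strand): ggagaaaacagttgctactgagaagatttt
Lag3 probe 2 (chr6:124859333-124859392, minus strand): gcctgtctacaactcaccgcgtcatttttt
Which exon or untranslated region each probe lies in was not determined, since no annotation of mm9 was used here. Lag3 probe 1 spans 297 bases of the genome, so its 60 bases are not contiguous there.

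Well above background were 57.9% of the spots other than controls on the array labelled P2ry6-/- and 57.8% on the array labelled WT. The median signal was 40.0 scanner units on the array labelled P2ry6-/- and 39.9 on the array labelled WT. No spot was saturated. P2ry6 itself was 2.44-fold higher on the array labelled P2ry6-/- (log2 difference 1.29, SD 0.0058 over 2 probes), which goes against that label. Where its probes lie relative to the deleted part was not given in the sources used here, so they may not check the genotype. The arrays are therefore called knockout-labelled and WT-labelled, and every direction below follows those labels. All 12 keratinocyte markers were above background on both arrays.

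A level is a probe's processed signal on the log2 scale less its array's 75th percentile over probes, and a difference is the knockout-labelled level minus the WT-labelled level. Technical error was judged by 3 yardsticks. Replicate spots of 1 probe differed with an SD of 0.12 log2 units (293 probes), which was 0.22 for the 7 such probes with a signal under 100. Different probes of 1 gene differed with an SD of 0.38 (6731 genes). The scanner software's own error of each spot is given after the ± sign. Over all 19872 genes measured on both arrays the difference had a median of -0.06 and an SD of 0.65, and no value here includes the spread between tumours.

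Of the 6 checkpoint genes measured on both arrays, 0 were 2-fold higher or more and 0 were 2-fold lower or more. Among all genes so measured the shares past 2-fold were 4.82% higher and 5.04% lower, 9.86% in either direction, so a count of 0 in 6 genes is near that background. At 1.5-fold, Havcr2 and Lag3 were higher and none was lower, where 12.9% and 13.8% of all genes passed. The differences of the 6 genes ran in the order Havcr2 0.72, Lag3 0.62, Cd86 0.31, Cd80 0.10, Cd274 -0.29 and Pdcd1 -0.32, with a median of 0.21. In each of the 5 neighbouring pairs of that order the gap was smaller than the larger of the pair's errors. The sign of the median turned when the arrays were scaled on spike-in probes (-0.26) or when dim probes were kept (-0.07).

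**Figure D1:**
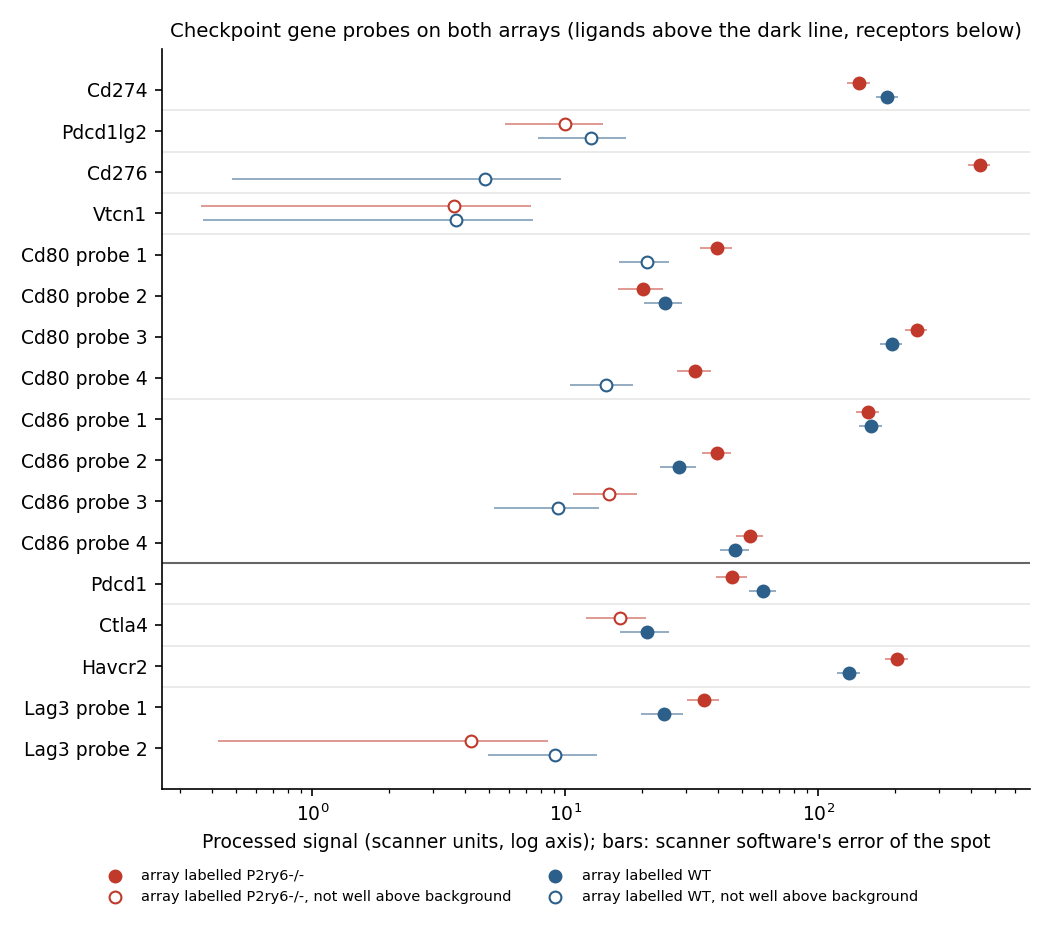
Processed signal of the 17 checkpoint probes (horizontal log axis, scanner units) on the array labelled P2ry6-/- (red, upper point of each pair) and the array labelled WT (blue, lower point); open points were not well above background, and bars are the scanner software's error, shortened on the low side where they would reach 0. Cd276 read 434 on the knockout-labelled array and 4.79 on the WT-labelled array. The other pairs lie closer together, the widest in ratio being Cd80 probe 4 (32.6 against 14.5, in the same order).

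Among the ligands, Cd274 encodes PD-L1, which binds PD-1 and damps T cell activity. Its probe (chr19:29462363-29462422) read 144 units on the knockout-labelled array, against 187 on the WT-labelled array. The difference was -0.29 ± 0.21, or 1.22-fold lower, and 56.8% of all measured genes lay at least as far from 0. Its sign was negative in all 9 alternatives, which gave -0.75 to -0.21. Both other filters and the brightest-probe choice returned the reported value, since each used the same single probe. The difference was below the SD between probes of a gene (0.38), and with 1 probe and 1 array per genotype it could not be told from technical variation.

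Pdcd1lg2 encodes PD-L2, the other ligand of PD-1, and lies beside Cd274 on chromosome 19. Its probe (chr19:29545473-29545532) read 9.92 on the knockout-labelled array and 12.6 on the WT-labelled array, and neither value was well above background. Vtcn1 encodes B7-H4, a B7 family member that inhibits T cells. Its probe (chr3:100699254-100699313) read 3.64 on the knockout-labelled array and 3.69 on the WT-labelled array, again below that mark. No fold is given for either gene, and a difference between the tumours was not detectable at these signals. Neither reading shows that the transcript was absent. Of all gene names, 41.1% were above background on neither array.

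Cd80 and Cd86 encode the B7 proteins that engage CD28 or CTLA-4 on T cells, and each had 4 probes. The 4 Cd80 probes shown above gave unlike readings. Probe 3 was the brightest on both arrays, with 244 units on the knockout-labelled array and 195 on the WT-labelled array, a difference of 0.41 ± 0.21. Probe 2 read 20.2 on the knockout-labelled array and 24.7 on the WT-labelled array, a difference of -0.20 ± 0.39. Probes 1 and 4 were above background on the knockout-labelled array only. Probe 1 read 39.8 there, against 20.9 on the WT-labelled array, a bound of 2.02-fold. That bound equals its observed difference, 1.01 ± 0.38, so it is not a lower limit. Probe 4, designed to a predicted transcript variant, read 32.6 on the knockout-labelled array, against 14.5 on the WT-labelled array, a bound of 1.95-fold. Its observed difference was 1.25 ± 0.46.

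These bounds set the bright array's level against the lowest level well above background on the dim array, or against the dim probe's own level where that was higher. That lowest level (17.7 units on the WT-labelled array) is not a fixed limit, since Cd80 probe 1 did not pass there at 20.9. A bound is therefore not a strict minimum. The mean over Cd80 probes 2 and 3 was 0.10 (SD 0.43 over 2 probes), so Cd80 as a gene did not differ beyond the spread of its probes. Its sign turned on the spike-in scale (-0.36), and with all 4 probes the mean was 0.62. The 3 probes above 0 and the one below it do not settle a direction for Cd80.

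Cd86 gave more even readings. Probe 1 (chr16:36603961-36604020) read 158 units on the knockout-labelled array and 161 on the WT-labelled array, a difference of 0.05 ± 0.21. Probe 2 (chr16:36604506-36604565) read 39.8 on the knockout-labelled array and 28.1 on the WT-labelled array, a difference of 0.59 ± 0.30. Probe 4 (chr16:36660860-36660919) read 53.8 on the knockout-labelled array and 47.0 on the WT-labelled array, a difference of 0.28 ± 0.26. All 3 lay above 0, by little where the signal was brightest. Probe 3 (chr16:36615381-36615440) read 14.9 on the knockout-labelled array and 9.37 on the WT-labelled array, and neither was well above background. The gene's mean was 0.31 (SD 0.27 over 3 probes), or 1.24-fold higher, and it fell to -0.16 on the spike-in scale.

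Cd276 encodes B7-H3, a B7 protein found on many tumour and stromal cells whose receptor on T cells is not settled. Its single probe, whose first bases are shown above, read 434 ± 43.7 units on the knockout-labelled array, which was above 77.8% of that array's probes. On the WT-labelled array it read 4.79 ± 4.81 and was not well above background. The bound put the knockout-labelled level 26.0-fold higher. It was the second greatest bound among the 1012 genes (2.71% of all gene names) above background on the knockout-labelled array only. Of those genes, 22.6% had a bound of 2-fold or more. The Cd276 bound was 5.88-fold with normexp background correction and 18.9-fold on the spike-in scale, so 26.0-fold is not a minimum. Its direction is fixed by its being above background on that array alone.

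The Cd276 spot lay in a region of the array where many unrelated probes also read higher on the knockout-labelled array. Within 4 rows and 4 columns of it, 39 neighbouring spots were measured on both arrays, and their median difference was 0.66. Of these spots 14 (35.9%) were at least 2-fold higher and 1 was lower by that much, against 4.68% higher over all 32450 spots measured on both arrays. A further 7 of the 74 neighbours were above background on the knockout-labelled array only and 0 on the WT-labelled array only. Only 27 of 59119 spots (0.0457%) had a local median that high, a measure whose 1st to 99th percentiles were -0.31 and 0.24. With the local median subtracted, an alternative chosen after seeing the data, the Cd276 bound was 16.4-fold.

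The spot itself carried no outlier mark on either array. Its mean pixel value was 387 (pixel SD 53.1, 43 pixels) on the knockout-labelled array and 39.4 (pixel SD 11.4, 48 pixels) on the WT-labelled array. Local background was 29.0 on the knockout-labelled array and 28.5 on the WT-labelled array. The part of the surrounding region in the Cd276 reading was not tested, and no second Cd276 probe exists on the array to set beside it. The spots of the other 9 genes had local medians between -0.23 and 0.15.

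**Figure D2:**
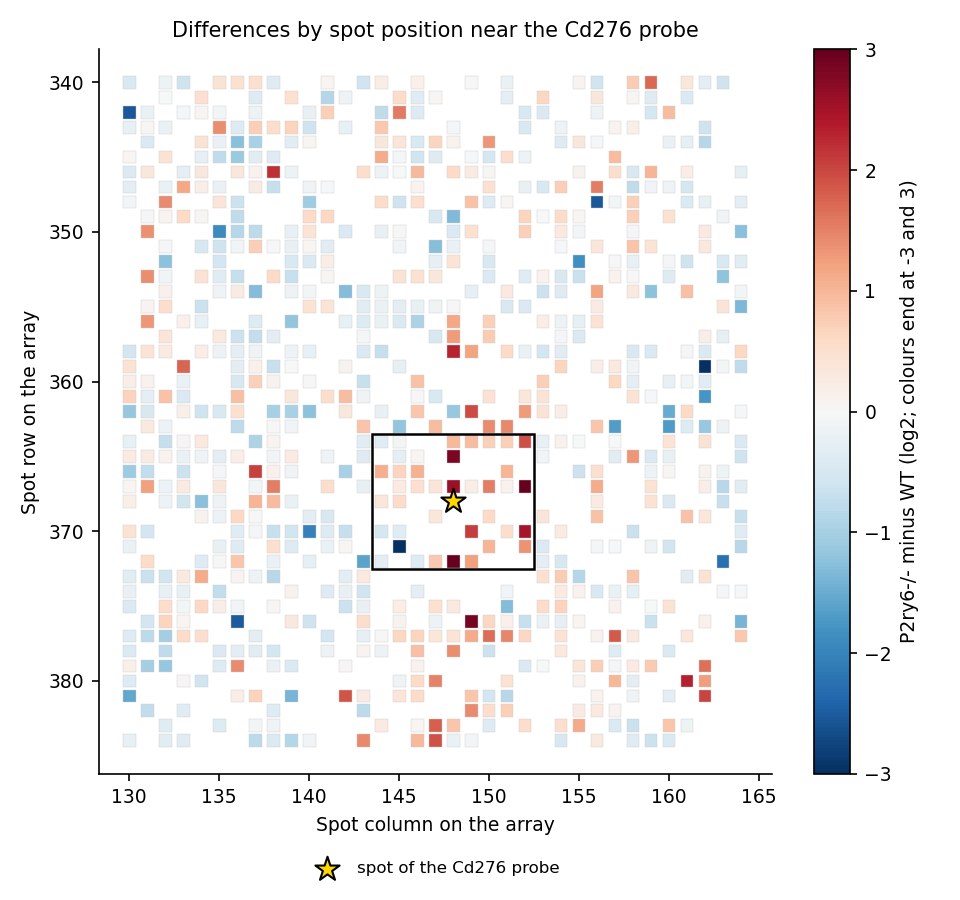
Log2 difference (P2ry6-/- minus WT, colour, red higher and blue lower) of each spot measured on both arrays near the Cd276 probe, by spot column (horizontal) and row (vertical); the star marks the Cd276 spot, and the box encloses the spots within 4 rows and 4 columns. Red spots crowd into the columns around the star, and the box's median was 0.66.

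The capitals in the Cd276 probe, GGCTACACAGAGAAACC, also stand in 6 other non-control probes, among them those of Elk1, Med16, Glrx2, Cxcl11 and Gm10856. As background, these letters occur in the B1 family of short rodent repeats. All 6 were well above background on both arrays, with differences of -0.76 to 0.56. Their signals ranged over 232 to 198171 on the knockout-labelled array and over 168 to 221714 on the WT-labelled array. Whether transcripts with this stretch bind the Cd276 probe was not tested.

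**Figure D3:**
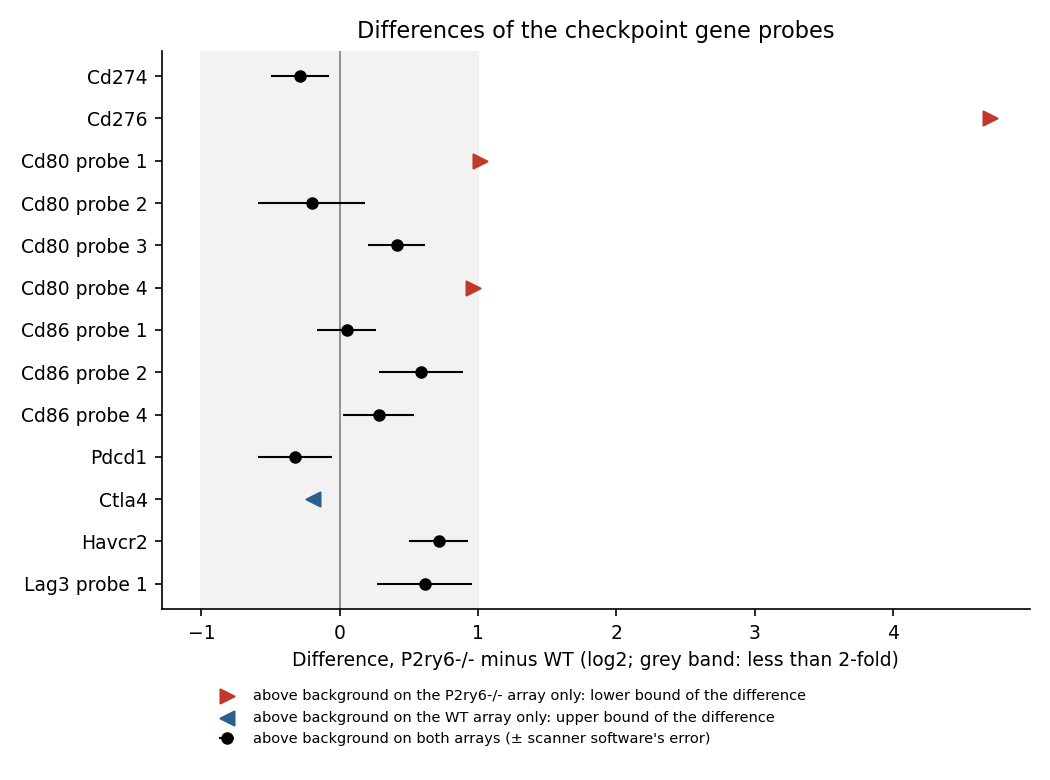
Log2 difference (P2ry6-/- minus WT, horizontal) of the 13 checkpoint probes above background on at least 1 array; black points with the scanner software's error are probes measured on both arrays, and triangles are bounds, red where the knockout-labelled array alone was above background and blue where the WT-labelled array alone was. The grey band holds differences under 2-fold, where all 9 probes measured on both arrays lie.

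Among the receptors, Havcr2 encodes TIM-3, found on long-stimulated T cells and also on macrophages and dendritic cells. Its probe read 205 units on the knockout-labelled array, against 132 on the WT-labelled array. The difference was 0.72 ± 0.21, or 1.64-fold higher, the greatest of the 6 genes measured on both arrays. Of all measured genes, 9.69% had a difference as high or higher, and 19.4% lay at least as far from 0. It was positive in all 9 alternatives, between 0.25 on the spike-in scale and 0.88 with the local median subtracted. Both other filters and the brightest-probe choice returned the reported value, since each used the same single probe. As reported, the difference exceeded the technical error of the spot and the spread between probes of a gene (0.38). On the spike-in scale it was below that spread. No biological replicate exists to set it against.

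Lag3 encodes a receptor that binds MHC class II and restrains T cells. Its probe 1 read 35.4 on the knockout-labelled array and 24.5 on the WT-labelled array, a difference of 0.62 ± 0.34, or 1.53-fold higher. Of all measured genes, 12.1% had a difference that high or higher, and 24.9% lay at least as far from 0. Probe 2 read 4.25 on the knockout-labelled array and 9.13 on the WT-labelled array, neither well above background. The Lag3 difference was thus carried by 1 dim probe. It was 0.23 with normexp and 0.15 on the spike-in scale, and it was -0.20 when both probes were averaged without a filter.

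Pdcd1 encodes PD-1, the receptor of PD-L1 and PD-L2. Its probe (chr1:95935064-95935123) read 45.7 on the knockout-labelled array and 60.6 on the WT-labelled array. The difference was -0.32 ± 0.27, or 1.25-fold lower, close in size to its error, and 52.5% of all measured genes lay at least as far from 0. It stayed negative in all 8 alternatives that measured it, from -0.78 to -0.16. Dropping the filter and taking the brightest probe returned the reported value, since each used the same single probe.

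Ctla4 encodes the inhibitory receptor for CD80 and CD86. Its probe (chr1:60971801-60971860) read 16.4 on the knockout-labelled array, not well above background, and 21.0 on the WT-labelled array, where it passed. The bound put the WT-labelled level 1.14-fold higher, while the observed difference was -0.28 ± 0.50, smaller than its error. The lowest signal that passed was 17.4 on the knockout-labelled array and 17.7 on the WT-labelled array. Those are not fixed limits, since Cd80 probe 1 read 20.9 on the WT-labelled array and did not pass. The status of Ctla4 thus rests on a few scanner units. Of all gene names, 2.92% were above background on the WT-labelled array only, and 24.4% of those had a bound of 2-fold or more.

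**Figure D4:**
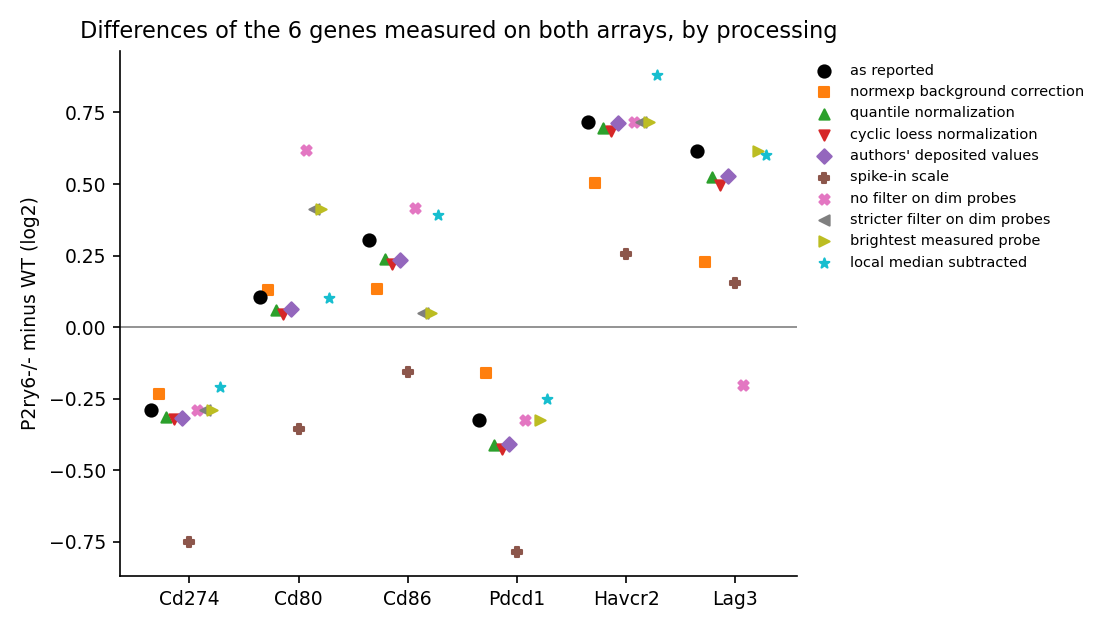
Log2 difference (P2ry6-/- minus WT, vertical) of the 6 checkpoint genes measured on both arrays, as reported (black circles) and under 9 alternatives of background correction, scaling and filtering (coloured symbols). Cd274 and Pdcd1 lie below 0 and Havcr2 above 0 throughout, while Cd80 and Cd86 cross 0 on the spike-in scale and Lag3 crosses it when dim probes are kept.

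In bulk tissue, fewer cells of a type and less RNA per cell cannot be told apart, so the genes were set beside markers of the cells that can carry them. The T cell receptor list had 15 of 17 genes measured on both arrays, of which 0 were at least 2-fold higher and 1 was lower. On the spike-in scale 3 were lower. That scale lowered every difference by 0.46, so 3123 of all 19872 measured genes were 2-fold lower there, against 1002 as reported. Spike-in counts of the lists below carry the same shift. The T cell receptor list's median was -0.13, which was above 0 with normexp and with the local median subtracted. Cd2, a T cell adhesion molecule, differed by -1.29, Cd8b1 by 0.74 and Cd247, the zeta chain, by -0.55. The summed signal of that list was 9182 on the knockout-labelled array and 9389 on the WT-labelled array. Cd8a was above background on the knockout-labelled array only, and Trat1 on neither.

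Cytotoxic and NK cell markers were dim, with 6 of 14 measured on both arrays, 0 at least 2-fold higher and 2 lower. Those 2 were the granzyme genes Gzmb (-2.62) and Gzma (-1.50), while Prf1, which encodes perforin, differed by 0.87 and Klrd1 by 0.41. The list's summed signal was 346 on the knockout-labelled array and 649 on the WT-labelled array. Ifng, Eomes, Gzmk, Fasl, Ncr1 and Klrb1c were above background on neither array. Of the regulatory and exhausted T cell list, 10 of 13 genes were measured and 0 lay 2-fold apart. In this list 3 genes were lower by that much on the down-shifted spike-in scale. Its greatest differences were Ikzf2 -0.89, Prdm1 -0.80, Entpd1 0.73 and Tcf7 0.72, so the genes of this list had differences of both signs.

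Markers of myeloid cells, which can carry Havcr2, Cd80 and Cd86, had positive medians, while their counts past 2-fold depended on the scaling. Of 18 macrophage and monocyte markers, 17 were measured on both arrays, 8 of them 2-fold higher or more and 2 lower, with a median of 0.94 and a range of 0.48 to 1.03 over the alternatives. Those counts were 2 higher and 3 lower on the spike-in scale, and 4 higher and 1 lower with normexp. Cx3cr1, a chemokine receptor, differed by 2.78, the Fc receptor gene Fcgr1 by 1.71 and Mertk by 1.35. The list's summed signal was 47424 on the knockout-labelled array and 45795 on the WT-labelled array, and Cd163 was above background on the WT-labelled array only. The dendritic and Langerhans cell list had 12 of 16 genes measured, 5 of them 2-fold higher or more and 1 lower, with a median of 0.87 and a range of 0.41 to 1.03 over the alternatives. On the spike-in scale 0 were higher and 1 lower by that much, and with normexp 2 were higher and 0 lower.

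H2-Aa, an MHC class II chain, differed by 1.27, Itgax by 1.21, Ciita, the class II transactivator, by 1.14 and the Langerhans cell gene Cd207 by -1.66. Their list summed to 84511 on the knockout-labelled array and 49819 on the WT-labelled array, and Zbtb46, Xcr1, Clec9a and Cd209a were above background on neither. Beside these medians stood differences of 0.72 for Havcr2, 0.31 for Cd86 and 0.10 for Cd80. With dim probes kept, the medians were 0.71 for the macrophage list and 0.68 for the dendritic list, and Havcr2 stayed at 0.72. The part of myeloid cell content in the Havcr2 and Cd86 values was not tested.

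**Figure D5:**
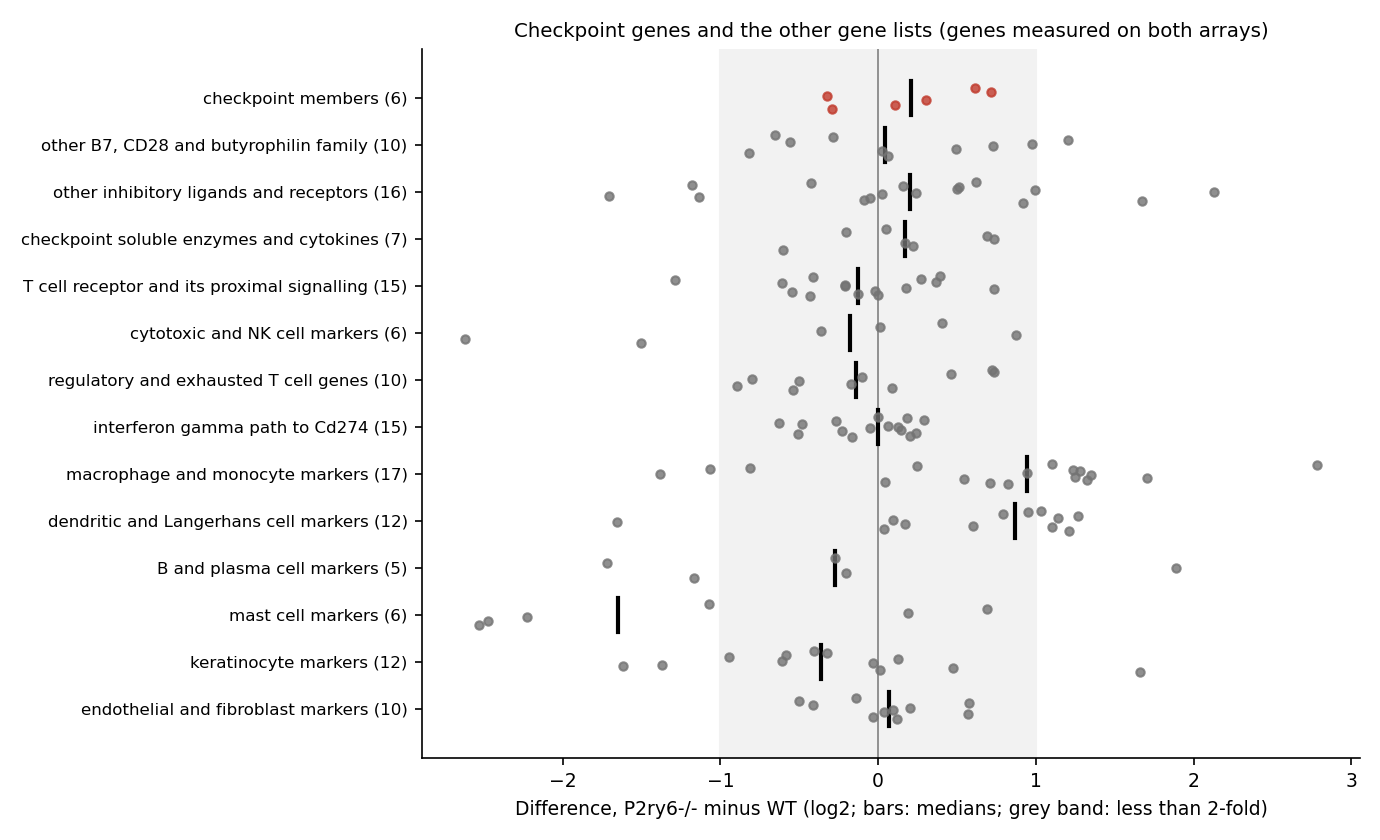
Log2 difference (P2ry6-/- minus WT, horizontal) of each gene measured on both arrays, for the checkpoint genes (red) and 13 other lists (grey), with the number of genes in brackets and black bars at the medians. The checkpoint genes lie between -0.32 and 0.72, and the macrophage (0.94), dendritic (0.87) and mast cell (-1.65) medians lie farther from 0; the checkpoint median turns negative on the spike-in scale and when dim probes are kept.

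A chosen list of genes around the interferon gamma route to Cd274, not the whole pathway, was read next. Of its 16 genes, 15 were above background on both arrays and 0 were 2-fold apart, with a median of -0.003 whose sign turned in 6 of 9 alternatives. Ifng, the cytokine, was above background on neither array. Cmtm6, which stabilises PD-L1 at the cell surface, differed by -0.63, the kinase gene Jak1 by -0.51, the feedback inhibitor gene Socs1 by -0.48 and the chemokine gene Cxcl9 by 0.29. These differences lay within the SD over all genes (0.65), as that of Cd274 did.

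Relatives of the checkpoint genes were read the same way. Of 18 other B7, CD28 and butyrophilin family genes, 16 were on the array and 10 were measured on both arrays. Of these 10, 1 was at least 2-fold higher and 0 lower (0 higher and 3 lower on the down-shifted spike-in scale). Btnl2, a butyrophilin that inhibits T cells in mice, differed by 1.21, Vsir, which encodes VISTA, by 0.97, the BTLA ligand gene Tnfrsf14 by 0.73 and the costimulator gene Icos by -0.82. The median of 0.04 turned negative in 7 of 9 alternatives. Tigit, Cd96, Cd160 and Btn2a2 were above background on neither array.

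Of 23 other inhibitory or costimulatory ligands and receptors, 16 were measured on both arrays, with 2 at least 2-fold higher and 3 lower. Lair1, an inhibitory receptor for collagen, was 4.37-fold higher (2.13), and Ceacam1, a proposed TIM-3 ligand, was 3.19-fold higher (1.67). Cd200, whose product restrains myeloid cells, was 3.26-fold lower (-1.71), and Tnfsf9, the 4-1BB ligand, was 2.27-fold lower (-1.18). The list's counts were 4 higher and 2 lower with quantile normalization and 0 higher and 4 lower under the stricter filter.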

How the data were processed

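Tumour RNA of 2 samples was analysed, 1 array each. Per the file headers, the authors' deposited scanner files hold the intensity of each spot, extracted with Agilent Feature Extraction 10.7.1.1 (per the submitters' processing notes), which subtracted a fitted background. The authors' deposited table of log2 values looked quantile-normalized, since both columns had a median of 4.96 and followed the processed signal (r = 0.9997 for P2ry6-/-, 0.9999 for WT). How it was scaled was not given in the sources used here.

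From these, 62976 spots per array were reduced to 59305 non-control spots. Spots marked as outliers were left out (105 on the P2ry6-/- array, 102 on the WT array), which removed 11 probes. Log2 processed signal was centred on each array's 75th percentile (327 units on the P2ry6-/- array, 347 on the WT array). Probes well above background on both arrays were averaged per gene. Symbols were updated for 1535 probes through RefSeq accessions. Differences had no test, since 1 array per genotype leaves no residual degrees of freedom. The array number limits the precision.

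The members, gene lists and rules were chosen with earlier results of these data known. The text names all 10 members, P2ry6, and up to 4 genes per list with the greatest absolute difference among those measured on both arrays, of which a few are not reported here. Other names (genes above background on 1 array or neither, neighbours of the Cd276 spot and probes sharing its letters) were chosen after their values were seen. The calculation was checked on simulated data. Python 3.11.15, R 4.3.3 and limma 3.58.1 were used. Alternatives were normexp (offset 50), quantile and cyclic loess normalization, the deposited log2 values, spike-in scaling, no filter on dim probes, a stricter one (4 times the lowest signal above background), the brightest probe per gene, a 1.5-fold threshold and a local median.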

Additional observations from a re-analysis of the deposited data

How the results depend on the processing

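No paired analysis was possible because each genotype had 1 array. The counts of checkpoint genes past 2-fold (0 higher, 0 lower) held under all alternatives of background correction, scaling, stricter filter, brightest probe and local median. With no filter on dim probes 1 gene, Cd276, was at least 2-fold higher, and at a 1.5-fold threshold 2 were, Havcr2 and Lag3. The median of the measured genes was -0.26 on the spike-in scale, where the median of all genes was -0.52, so that 3123 genes were 2-fold lower and 320 higher. Under the stricter filter 1 gene (Cd276), in place of 2, was above background on one array only. Over all genes, the counts higher and lower were 368 and 578 with normexp, 2244 and 2135 without a filter, and 540 and 721 with the stricter filter, against 957 and 1002 as reported. The cause of these shifts was not tested. Cd276 rests on 1 spot, Lag3 and Ctla4 on dim spots, and 7 of the 10 genes on 1 probe each, so a probe's own error was not averaged out.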

Other observations

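Soluble and enzymatic inhibitors of T cells were measured for 7 of 11 genes, with 0 at 2-fold in either direction. Arg1, which encodes the arginine-degrading enzyme of myeloid cells, differed by -0.60 (1.52-fold lower on the knockout-labelled array). Entpd1, which encodes the ATP-degrading enzyme CD39, was 1.66-fold higher (0.73, SD 0.11 over 2 probes). Tgfb1, the inhibitory cytokine gene, was 1.62-fold higher (0.69, SD 0.33 over 2 probes), and Nos2, the inducible nitric oxide synthase gene, was 1.16-fold higher (0.22). The tryptophan-degrading enzyme genes Ido1, Ido2 and Tdo2 were above background on neither array, and Il10 on the WT-labelled array only. The list's median was 0.17 and turned negative on the spike-in scale.

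Other genes whose spots lay within 4 rows and 4 columns of the Cd276 spot included Olfr1153, an olfactory receptor gene, which read 329 on the knockout-labelled array and 35.9 on the WT-labelled array (9.72-fold higher). Eid2 read 1148 on the knockout-labelled array and 201 on the WT-labelled array (6.06-fold higher), and Stoml1 was 5.63-fold higher. These genes are named for their place on the array, after their values were seen.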
